A study of Mus musculus with 6 samples.

Results

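The genes described here are 9 genes that mark the B cell lineage, *Cd79a*, *Cd79b*, *Pax5*, *Ms4a1*, *Cd22*, *Blk*, *Fcer2a*, *Ebf1* and *Blnk*, of 53458 genes measured by RNA-seq in AML blasts of mice. They were taken by symbol, and the reads that the authors had assigned to each annotated transcript were summed per gene. All 9 had reads in each of the 6 mice and all 9 were among the 22170 genes tested. Blasts came from 3 Cebpa-/p30 Tet2+/+ mice (mice 19, 23 and 24) and 3 Cebpa-/p30 Tet2-/- mice (mice 5, 7 and 8), labelled as strain C57BL/6, with 1 library per mouse. The comparison asked how gene expression in *Cebpa*-mutant leukemia changes when TET2 is lost. Blasts of both genotypes carried a *Cebpa* allele that makes only the short p30 isoform and a second, floxed *Cebpa* allele that had been deleted, so the Tet2+/+ group is itself leukemic and not normal marrow. Recombination of the floxed *Cebpa* and *Tet2* alleles was driven by *Mx1-Cre*, which poly(I:C) induces in interferon-responsive cells and so not in a single cell type. It was induced in irradiated, transplanted young adult female recipients of the congenic strain C57BL/6J.SJL that had reconstituted from donor marrow. The age at sampling and the share of recombined cells are not given in the sources used here. Libraries were made from live donor-derived marrow cells that were negative for CD3, B220 and Ter119. B220 is the form of CD45 that B cells carry, so cells with B220 on their surface had been gated out before RNA was taken.

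B cells are lymphocytes that recognise antigen through the B cell receptor, a surface immunoglobulin that signals through the paired chains CD79A and CD79B. Src-family kinases such as BLK phosphorylate these chains, and the adaptor BLNK links them to downstream enzymes. The transcription factors EBF1 and PAX5 switch on this set of genes in bone marrow progenitors and keep other lineages closed, while CD20 (*Ms4a1*), CD22 and CD23 (*Fcer2a*) are surface proteins of later B cells. C/EBPA drives the myeloid lineage, and TET2 oxidises methylated cytosine, which in mammals lies mostly at CpG dinucleotides.

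In these sorted blasts the 9 genes were measured at low levels, and none differed between genotypes at an adjusted p under 0.05 with edgeR's quasi-likelihood test. *Fcer2a* was the only member whose genotypes did not overlap, with 0.675 ± 0.0876 TMM-normalized counts per 1000000 reads (CPM; SD, n = 3) in TET2-deficient blasts and 3.91 ± 3.20 CPM (SD, n = 3) in Tet2+/+ blasts, where 7.94% of all genes tested were lower and 6.41% higher without overlap, so 1 of 9 is near the share among all genes. *Cd79b* was the most abundant member and had like means of 31.3 ± 16.3 CPM and 29.3 ± 16.9 CPM (SD, n = 3 each). The other 7 genes had lower means in TET2-deficient blasts, but in each of them mouse 5 lay within or above the range of the Tet2+/+ mice.

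The start regions of 4 members are shown, since TET2 acts on cytosines of the kind found in them and EBF1, a member, is known to act through a short DNA motif. They are the stretches upstream of RefSeq starts on GRCm38.p6, read 5′ to 3′ on the strand of the gene and cut where an annotated exon begins. For *Fcer2a* (chr8:3694176-3694424, minus strand), *Cd79a* (chr7:24897247-24897380, plus strand) and *Pax5* (chr4:44710695-44710944, minus strand) capitals mark CpG. For *Cd22* (chr7:30879029-30879176, minus strand) capitals mark a match to the palindromic EBF motif, searched with its 2 middle bases free.
Fcer2a: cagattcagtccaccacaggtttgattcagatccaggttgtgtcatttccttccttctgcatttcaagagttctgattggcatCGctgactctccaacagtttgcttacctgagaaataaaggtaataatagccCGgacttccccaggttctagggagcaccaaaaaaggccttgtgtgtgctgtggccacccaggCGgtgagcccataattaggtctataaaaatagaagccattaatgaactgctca
Cd79a: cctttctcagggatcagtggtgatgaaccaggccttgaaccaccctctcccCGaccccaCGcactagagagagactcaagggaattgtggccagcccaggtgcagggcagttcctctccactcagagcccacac
Pax5: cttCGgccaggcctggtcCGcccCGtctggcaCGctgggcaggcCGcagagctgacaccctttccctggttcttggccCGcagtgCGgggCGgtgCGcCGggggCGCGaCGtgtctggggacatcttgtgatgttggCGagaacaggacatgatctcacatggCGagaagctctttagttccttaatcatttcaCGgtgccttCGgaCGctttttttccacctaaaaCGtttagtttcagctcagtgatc
Cd22: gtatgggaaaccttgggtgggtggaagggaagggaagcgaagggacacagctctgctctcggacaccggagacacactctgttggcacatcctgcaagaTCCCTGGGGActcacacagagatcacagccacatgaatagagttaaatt

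The window of 300 bases around the start (250 before it and the rest after it) held 3 CpG at *Fcer2a*, 4 at *Cd22*, 8 at *Cd79a* and 23 at *Pax5*, while the median over 32851 windows of all genes was 7. Of all windows, 31.4% had as few CpG as that of *Fcer2a* or fewer, and 80.0% as few as that of *Pax5* or fewer. On either strand an exact match to the EBF motif, with only its 2 middle bases free, was found in 0.904% of windows. Among the members it was found only in the window of *Cd22*, at position -49 from the start. Looser matches were not searched for, so a window without a match, such as that of *Cd79a*, may still hold an EBF site. The octamer ATTTGCAT was found in 1.74% of windows, and among the members only in that of *Blnk*, at position -130. These motif matches overlap no CpG and are descriptions of the letters. A window was at hand for 6 of the 9 members, with 3 starts for *Fcer2a* and 2 for *Ebf1*. Of the *Fcer2a* reads, between 91.7% and 100% in each mouse belonged to Fcer2a-201, the transcript that begins at the start shown. Of the *Cd22* reads, only between 12.7% and 49.0% in each mouse belonged to Cd22-201, which begins at the *Cd22* start shown. Other annotated *Cd22* transcripts begin further upstream. Methylation was not analysed here.

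Sequencing depth was between 13036643 and 32855343 estimated reads per mouse, and mouse 5 had the deepest library. The genes behind the sort were examined with the members. *Ptprc*, which encodes CD45, had between 762 and 1220 CPM, and *Cd3e*, a chain of the T cell receptor complex, between 1.14 and 4.24 CPM. *Tet2* summed over the whole gene was not lower in TET2-deficient blasts (95.8 ± 16.0 against 83.8 ± 13.0 CPM; SD, n = 3 each; adjusted p = 0.842), so total *Tet2* reads do not check the genotype labels. Which exons the deletion removes is not given in the sources used here. The *Ptprc* values above are sums over the whole gene and so cannot show B220, an isoform of its protein. Its transcripts were not examined singly.

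Levels of the members could be compared with each other only per transcript length, as length-scaled abundance that sums to 1000000 in a mouse (TPM), and transcripts under 500 bases were left out for reasons given with *Pax5* and *Cd22*. *Cd79b* led with a mean of 15.6 TPM over the 6 mice, followed by *Cd79a* with 2.99 TPM and *Ms4a1* with 1.06 TPM. *Cd22* (0.827 TPM), *Blk* (0.650 TPM), *Fcer2a* (0.622 TPM) and *Blnk* (0.557 TPM) followed. The 2 transcription factors were lowest, *Pax5* at 0.141 TPM and *Ebf1* at 0.0924 TPM. From *Cd79a* down, each member's range over the mice overlapped that of the next, so only *Cd79b* stood clear of its neighbour in this order. For scale, the 14 genes of myeloid blasts and granulocytes summed to between 22200 and 174000 TPM in these mice. *Cd79b* and *Cd79a* both exceeded every other member in each mouse on this scale. With transcripts of all lengths *Cd79b* still led in each mouse, but *Cd22* (mean 2.52 TPM) ranked above *Ms4a1* and exceeded *Cd79a* in mice 24, 7 and 8, and *Pax5* exceeded *Cd79a* in mouse 19, so the places below *Cd79b* depend on this choice, which was made after the values were seen.

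*Cd79a* (ENSMUSG00000003379, chromosome 7 from 24897381 to 24902197, plus strand) encodes the Ig-alpha chain of the receptor. It had 9.69, 12.2 and 3.80 CPM in mice 19, 23 and 24 and 10.5, 2.96 and 2.17 CPM in mice 5, 7 and 8. Mice 19, 23 and 5 were high and mice 24, 7 and 8 low, so the groups overlapped. The log2 fold change of TET2-deficient over Tet2+/+ blasts was -0.71 (standard error 0.69, adjusted p = 0.835 from edgeR with Benjamini-Hochberg adjustment over all genes), and the interval of 2 standard errors ran from -2.08 to 0.67. In bulk RNA of this kind, fewer cells of a type and less RNA per cell cannot be told apart, for this gene or any below.

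*Cd79b* (ENSMUSG00000040592, chromosome 11 from 106311341 to 106314762, minus strand) encodes Ig-beta, the partner of Ig-alpha. Its level was 25.4, 47.7 and 14.6 CPM in mice 19, 23 and 24 and 32.9, 14.1 and 46.7 CPM in mice 5, 7 and 8. The highest and the lowest pair of values were each split between the genotypes. The log2 fold change was 0.09 (standard error 0.54, adjusted p = 0.982), with an interval from -0.98 to 1.17, and its sign turned to -0.06 under scaling to the library totals alone. Between 85.8% and 93.8% of its reads belonged to Cd79b-202, the shorter of 2 coding transcripts, in every mouse.

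The 2 receptor chains did not keep a fixed ratio. *Cd79b* exceeded *Cd79a* in TPM 3.14, 4.66 and 4.50 times in mice 19, 23 and 24, and 3.67, 5.68 and 25.0 times in mice 5, 7 and 8. Mouse 8 stood apart: it had the second highest *Cd79b* of the 6 mice and the lowest *Cd79a*. Of all reads on the 9 genes, *Cd79b* held 83.3% in mouse 8 (861 of 1034 reads; 95% Clopper-Pearson interval 80.9% to 85.5%, which covers counting error only) and between 41.8% and 56.1% in the others. Without *Cd79b*, the summed CPM of the other 8 genes was 35.4, 47.6 and 20.3 for Tet2+/+ mice 19, 23 and 24 and 35.5, 11.1 and 9.39 for TET2-deficient mice 5, 7 and 8. Mouse 8 was lowest in this sum, while for all 9 genes together it reached 56.1 CPM, within the range of 35.0 to 95.3 CPM of the Tet2+/+ mice. The 10 marker genes of monocytes and macrophages summed to 6600, 5660 and 3520 TPM in mice 19, 23 and 24. In mice 5, 7 and 8 they summed to 7290, 7980 and 8580 TPM. The order of the mice differed from that of *Cd79b*, which was highest in mouse 23 and lowest in mouse 7. The part of these cells in the *Cd79b* value was not tested.

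**Figure D1:**
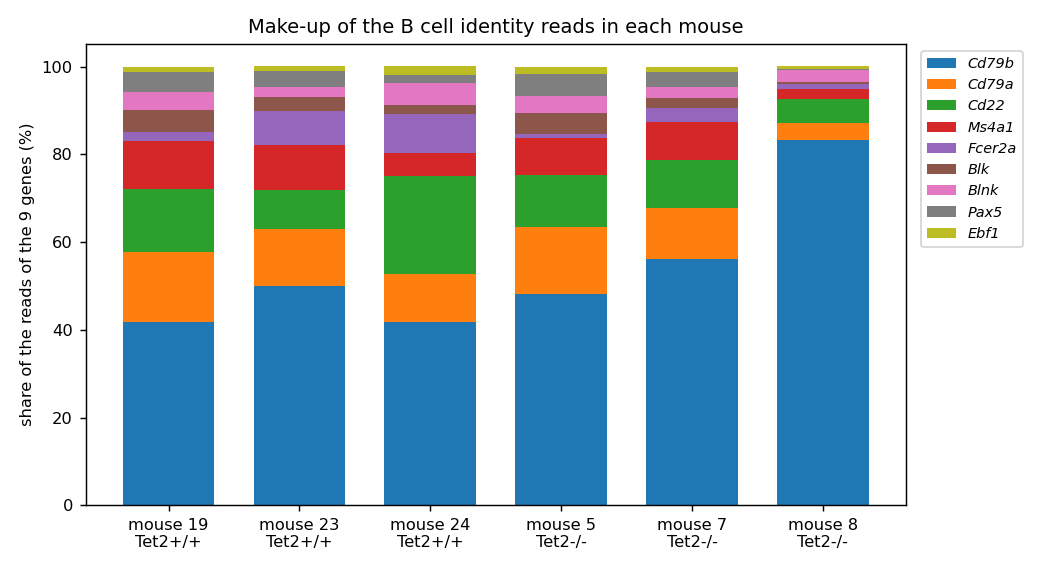
Share of each of the 9 genes in the reads summed over all 9 (percent, stacked to the full bar), for each mouse. *Cd79b* takes 83.3% in mouse 8 and between 41.8% and 56.1% in the other mice, and *Fcer2a* takes 7.81% and 8.85% in mice 23 and 24 and between 0.879% and 3.06% elsewhere.

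**Figure D2:**
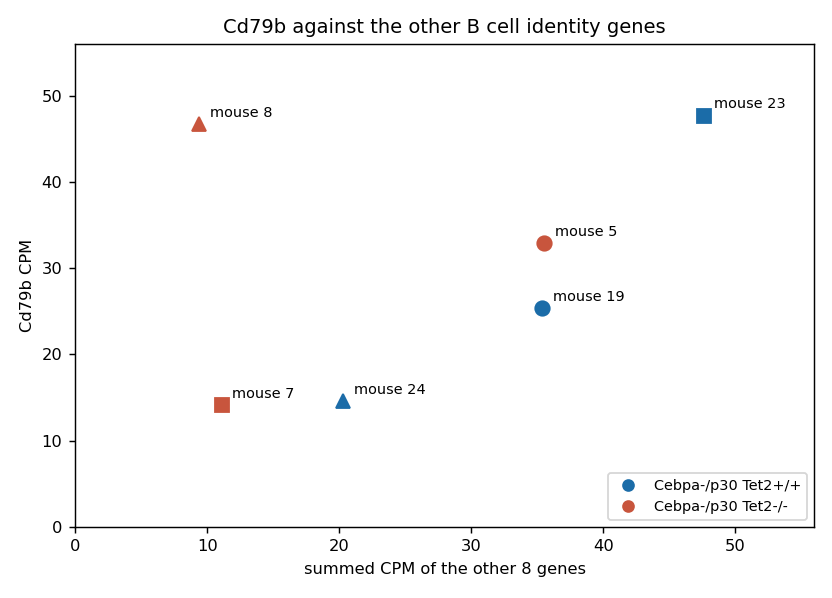
*Cd79b* (vertical axis, TMM-normalized CPM) against the summed CPM of the other 8 genes (horizontal axis), 1 point per mouse, colored by genotype. Mouse 8 has 46.7 CPM of *Cd79b* at a sum of 9.39 CPM, while mouse 23 has 47.7 CPM at a sum of 47.6 CPM.

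*Fcer2a* (ENSMUSG00000005540, chromosome 8 from 3681737 to 3694175, minus strand) encodes CD23, the low-affinity receptor for IgE of mature B cells. It had 1.20, 7.44 and 3.10 CPM in mice 19, 23 and 24 and 0.601, 0.772 and 0.651 CPM in mice 5, 7 and 8. Every TET2-deficient mouse lay below every Tet2+/+ mouse, and the values spread 6.22-fold among Tet2+/+ mice and 1.28-fold among TET2-deficient mice. These values rest on 20, 139 and 44 reads and on 19, 12 and 12 reads. The exact Poisson interval (95%) of mouse 19, 0.731 to 1.85 CPM, overlapped those of mouse 5 (0.362 to 0.939 CPM), mouse 7 (0.399 to 1.35 CPM) and mouse 8 (0.336 to 1.14 CPM). The lower bounds for mice 23 and 24 were 6.26 and 2.25 CPM, above the intervals of mice 5, 7 and 8. These intervals cover counting error only and not variation between mice.

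The log2 fold change of *Fcer2a* was -2.53 (standard error 0.69, interval -3.91 to -1.16). The unadjusted p from edgeR was 0.00765 and the adjusted p over all genes was 0.451. The 6 values gave p = 0.1 in an exact permutation test, two-sided, the smallest p that 3 mice against 3 allow. DESeq2 on the same counts gave an adjusted p of 0.027, and DESeq2 on length-scaled counts, the method of the study, gave 0.0379 with a log2 fold change of -2.57. With edgeR and a mouse left out the log2 fold change was between -2.97 (without mouse 19) and -1.69 (without mouse 23), with unadjusted p between 0.0013 and 0.0302 and no adjusted p under 0.214. The call thus depended on the test, while the direction held under all 15 alternatives run.

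Mouse 5 separated *Fcer2a* from the rest of the set. It had the lowest *Fcer2a* of all mice, and for each of the other 8 genes it ranked between the highest and the third highest. Per read of *Cd79a*, *Fcer2a* had 0.0584 reads in mouse 5, 0.261 in mouse 7 and 0.302 in mouse 8, and 0.122, 0.614 and 0.818 among mice 19, 23 and 24, so this ratio overlapped between the genotypes.

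*Cd22* (ENSMUSG00000030577, chromosome 7 from 30865402 to 30880342, minus strand) encodes a sialic acid-binding receptor that dampens B cell receptor signals. It had 8.73, 8.62 and 7.82 CPM in mice 19, 23 and 24, the narrowest spread of any member in Tet2+/+ blasts (1.12-fold). In mice 5, 7 and 8 it had 8.13, 2.76 and 3.04 CPM. Mouse 5 lay within the Tet2+/+ range, and mice 7 and 8 lay below it. Its log2 fold change was -0.84 (standard error 0.46, adjusted p = 0.684), with an interval from -1.77 to 0.08. Its reads were assigned to 11 of 16 annotated transcripts in proportions that changed from mouse to mouse, so its fold change is given for the gene total. Its level per length depended on the short transcripts, with a mean of 2.52 TPM from all transcripts and 0.827 TPM from those of at least 500 bases. A stretch of 9.5% of its exonic bases is shared with the antisense gene *Gm29439*, which had 13 reads over the 6 mice, and with a kit that does not keep strand such reads cannot be told apart.

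*Ms4a1* (ENSMUSG00000024673, chromosome 19 from 11249675 to 11266241, minus strand) encodes CD20, a membrane protein of B cells from the pre-B stage on. It had 6.70, 9.58 and 1.83 CPM in mice 19, 23 and 24 and 5.69, 2.19 and 1.3 CPM in mice 5, 7 and 8. Mice 19, 23 and 5 again stood above the other three. Between genotypes the log2 fold change was -0.97 (standard error 0.74, adjusted p = 0.781), with an interval from -2.44 to 0.50. In mouse 8 a transcript annotated as a retained intron, Ms4a1-202, took 74.5% of its 24 reads, against 14.0% to 32.0% in the other mice.

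*Blk* (ENSMUSG00000014453, chromosome 14 from 63372836 to 63417037, minus strand) encodes a Src-family kinase found chiefly in B cells. It had 3.11, 3.0 and 0.704 CPM in mice 19, 23 and 24 and 3.32, 0.579 and 0.271 CPM in mice 5, 7 and 8. The highest value was that of mouse 5, and the spread within TET2-deficient blasts (12.2-fold) was larger than the distance between the genotype means of 2.27 and 1.39 CPM. A log2 fold change of -0.68 was found (standard error 0.96, adjusted p = 0.890).

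*Blnk* (ENSMUSG00000061132, chromosome 19 from 40928927 to 40994535, minus strand) encodes the adaptor that couples SYK to BTK and phospholipase C. It had 2.39, 2.14 and 1.76 CPM in mice 19, 23 and 24 and 2.69, 0.643 and 1.52 CPM in mice 5, 7 and 8. Mouse 5 was highest and mouse 7 lowest. Its log2 fold change was -0.36 (standard error 0.55, adjusted p = 0.90), and it was 0.01 without mouse 7.

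*Ebf1* (ENSMUSG00000057098, chromosome 11 from 44617317 to 45008091, plus strand) encodes the early B cell factor that commits progenitors to the lineage. It was the only member below a mean of 1 CPM, with 0.778, 1.02 and 0.704 CPM in mice 19, 23 and 24 and 1.23, 0.321 and 0.271 CPM in mice 5, 7 and 8. Mice 7 and 8 had 5 reads each. Between genotypes the log2 fold change was -0.40 (standard error 0.67, adjusted p = 0.908).

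*Pax5* (ENSMUSG00000014030, chromosome 4 from 44524757 to 44710487, minus strand) encodes the factor that maintains B cell identity. It had 2.81, 3.64 and 0.634 CPM in mice 19, 23 and 24 and 3.29, 0.836 and 0.163 CPM in mice 5, 7 and 8, from 47, 68 and 9 reads and 104, 13 and 3 reads. Mice 19, 23 and 5 were high and mice 24, 7 and 8 low, as for *Cd79a*, and the spread in TET2-deficient blasts was 20.2-fold. Its log2 fold change was -0.70 (standard error 1.02, adjusted p = 0.892), with an interval from -2.73 to 1.33.

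The *Pax5* result changed when counts were rebuilt from TPM. DESeq2 on length-scaled counts gave a log2 fold change of -3.84 and an adjusted p of 0.0324. In mouse 19 the gene had 4.62 TPM, of which 4.45 TPM came from 1.9 reads assigned to Pax5-219, a non-coding transcript of 223 bases. The coding transcript Pax5-201 of 8004 bases held between 79.4% and 100% of the *Pax5* reads in each mouse. In mouse 24 a further short transcript, Pax5-216, held 20.6% of the 9 reads. With transcripts of at least 500 bases alone, a choice made after these values were seen, *Pax5* had 0.175, 0.255 and 0.0363 TPM in mice 19, 23 and 24 and 0.318, 0.0534 and 0.0110 TPM in mice 5, 7 and 8. Mouse 5 was then highest and the groups overlapped, and DESeq2 gave a log2 fold change of -0.14. The call for *Pax5* therefore rested on a few reads placed on short transcripts.

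**Figure D3:**
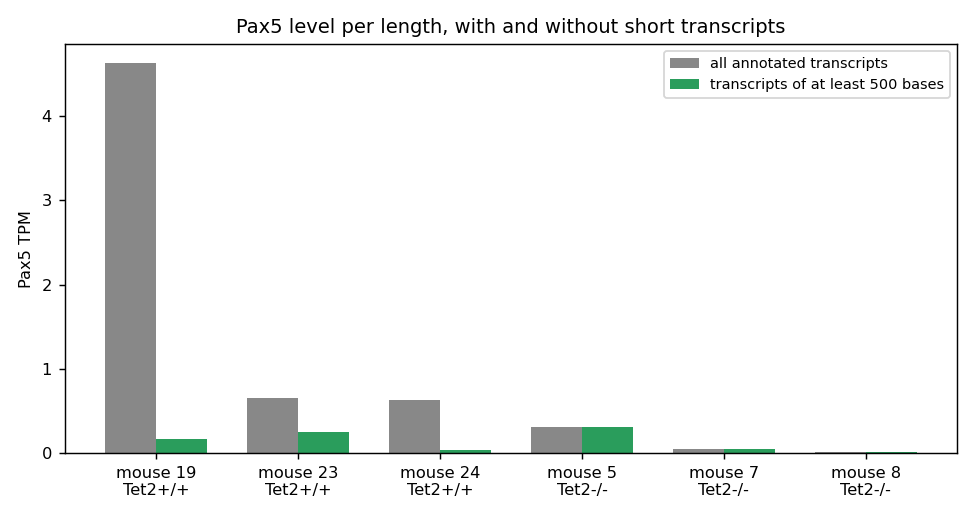
*Pax5* level per length (TPM) in each mouse, from all annotated transcripts (grey bars) and from transcripts of at least 500 bases (green bars). Mouse 19 stands at 4.62 TPM with all transcripts and at 0.175 TPM without the short ones, below mouse 5 at 0.318 TPM.

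Over all 9 members, 0 were lower and 0 higher at an adjusted p under 0.05 with edgeR, where 0.0451% of all genes were lower and 0% higher. At an unadjusted p under 0.05, 1 was lower (*Fcer2a*) and 0 higher, beside 5.12% and 3.0% of all genes. With DESeq2 1 member was lower (*Fcer2a*), beside 1.47% of all genes, and 0 were higher, beside 0.267%. With DESeq2 on length-scaled counts 2 were lower (*Fcer2a* and *Pax5*), beside 1.45%, and 0 higher, beside 0.288%. Without overlap between the genotypes 1 member was lower and 0 higher, beside 7.94% and 6.41% of all genes. Among genes that averaged 1 CPM or more, as 8 of the members did, these shares were 7.71% and 8.24%. The log2 fold change was below 0 in 8 of 9 members and the median was -0.70, where 49.9% of all genes were below 0 and the median of all genes was 0. Without mouse 5 the median of the members was -1.74, against -0.02 for all genes tested. In that fit 5.54% of all genes were lower at an unadjusted p under 0.05, and 5 of the 9 members were lower at an unadjusted p under 0.05, namely *Cd22* (0.00266), *Cd79a* (0.0233), *Blk* (0.0300), *Fcer2a* (0.0302) and *Ebf1* (0.0371), with 0 at an adjusted p under 0.05. With any other mouse left out, 1 member was lower at an unadjusted p under 0.05 with edgeR. *Cd22*, *Cd79a*, *Blk* and *Ebf1* varied together over the mice, so they are not separate results.

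**Figure D4:**
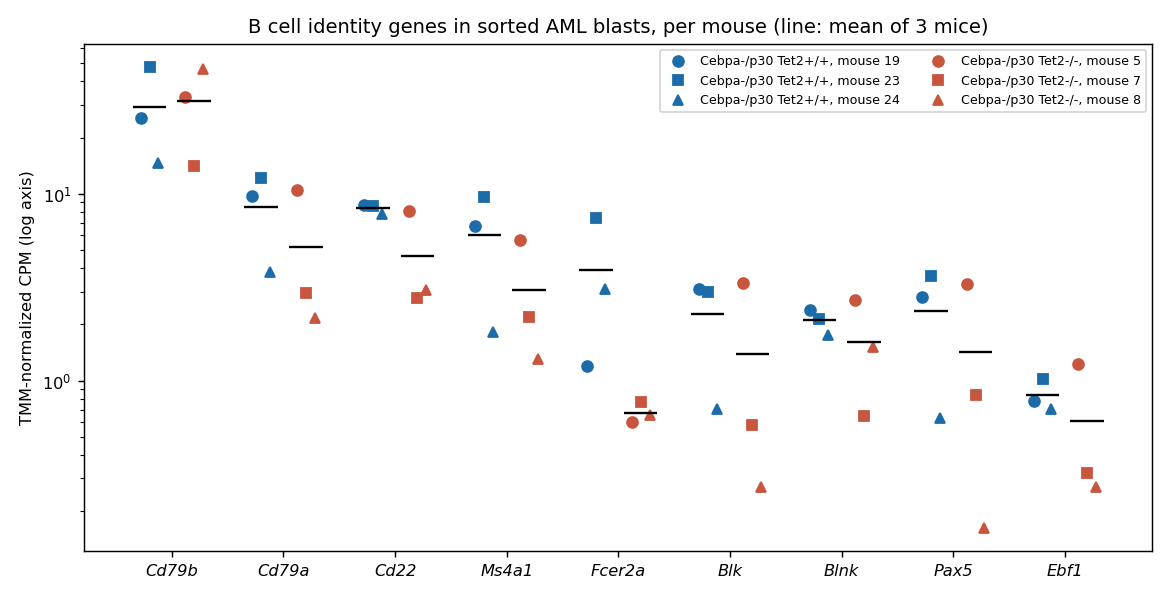
TMM-normalized CPM (log axis) of each of the 9 genes in each mouse, blue for Tet2+/+ and red for TET2-deficient blasts, with a line at the mean of 3 mice. Of the 9 genes the genotypes separate in *Fcer2a* (7.94% of all genes were lower without overlap), where TET2-deficient mice lie between 0.601 and 0.772 CPM and Tet2+/+ mice between 1.20 and 7.44 CPM.

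**Figure D5:**
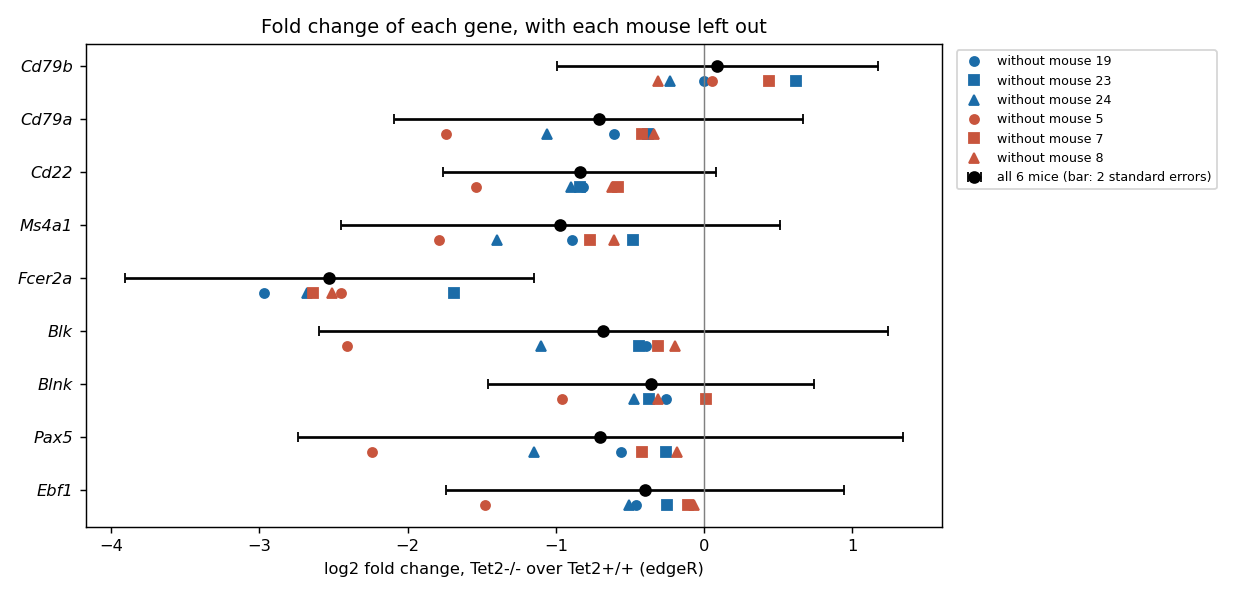
Log2 fold change of TET2-deficient over Tet2+/+ blasts from edgeR (horizontal axis) for each gene, in black with a bar of 2 standard errors on each side, and below it the value with each mouse left out (blue and red symbols). Leaving out mouse 5 gives the lowest value for 7 genes, down to -2.41 for *Blk*, and the bar excludes 0 for *Fcer2a* alone.

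Most members varied together from mouse to mouse. For *Cd79a*, *Pax5*, *Ms4a1*, *Cd22*, *Blk*, *Ebf1* and *Blnk* the top 3 mice were always 19, 23 and 5, which come from both genotypes. Across the 6 mice, on log2(CPM + 0.5), *Cd79a* had a Pearson r of 0.99 with *Blk*, 0.98 with *Pax5*, 0.97 with *Ms4a1* and 0.91 with *Ebf1*. The r of *Cd79b* with the other members was between 0.14 and 0.52, and that of *Fcer2a* between 0.14 and 0.53. These are descriptions over 6 points that share libraries and depth. Of 13831 other genes that averaged 1 CPM or more, those most like the mean of the 8 members that averaged as much (all but *Ebf1*) over the mice were *Dnaaf3* (r of 0.976), *Aars2* (0.975), *Cdk19* (0.970), *Nr1d2* (0.970) and *Gm595* (0.968), and 43 genes passed an r of 0.9.

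The other genes of B cell receptor signaling, 22 genes of which all were tested, were far more abundant in sum than the members, and many of them are known to act in myeloid cells too. They were led per length by *Grb2*, an adaptor, with a mean of 162 TPM, *Dok3*, an inhibitory adaptor, with 86.5 TPM, and *Prkcb*, a protein kinase C, with 54.5 TPM. With edgeR 0 passed an adjusted p of 0.05 in either direction, as with DESeq2 on length-scaled counts, and the median log2 fold change was 0.08. At an unadjusted p under 0.05, 2 were lower, *Bank1*, a B cell scaffold protein (-0.93), and *Dapp1*, an adaptor (-0.52), and 2 were higher, the tetraspanin *Cd81* (0.85) and the kinase *Lyn* (0.43), beside 5.12% lower and 3.0% higher among all genes. *Dapp1* and *Lyn* were named after their values were seen.

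Coreceptors and inhibitors, 16 genes all tested, had a median log2 fold change of 0.06 and 0 passed an adjusted p of 0.05 with edgeR or with DESeq2 on length-scaled counts. *Cd72*, an inhibitory receptor of B cells, was lower at an unadjusted p of 0.0141, with 6.68 ± 2.05 CPM in TET2-deficient and 14.8 ± 4.93 CPM in Tet2+/+ blasts (SD, n = 3 each, no overlap, edgeR). *Ceacam1* (0.88) and *Pirb* (0.75), inhibitory receptors that myeloid cells also carry, were higher at an unadjusted p under 0.05, and *Pirb* was named after its value was seen. Among all genes 5.12% were lower and 3.0% higher at an unadjusted p under 0.05 with edgeR. Without overlap between the genotypes 7.94% were lower and 6.41% higher. The phosphatases *Ptpn6* (0.06) and *Inpp5d* (0.08), the receptor *Lilrb4a* (0.32) and the adhesion molecule *Pecam1* (-0.78) did not pass, with the log2 fold changes given.

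Other mature B cell genes, 19 genes all tested, had a median log2 fold change of -0.07, and with edgeR 0 passed an adjusted and 0 an unadjusted p of 0.05, as 0 did with DESeq2 on length-scaled counts. Per length they were led by *Cd74*, the invariant chain of MHC class II (182 TPM), *Cd37*, a tetraspanin (178 TPM), and *Ly86*, the partner of CD180 (52.3 TPM). The largest log2 fold changes were those of *Cd55*, a complement regulator (1.68, standard error 1.21), *Ly6d*, a surface marker of B-committed progenitors (-1.44, standard error 0.68), and *Cd180* (-0.58, standard error 0.70). *Cd55* had 15.4 CPM in mouse 7 and between 0.434 and 2.52 CPM elsewhere.

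Of 15 genes of pro-B and pre-B cells, 13 were tested, and the median log2 fold change was -0.80. *Sox4*, a transcription factor that hematopoietic progenitors share, was lower at an adjusted p of 0.0348 with edgeR (13.1 ± 2.63 against 72.2 ± 13.7 CPM; SD, n = 3 each; log2 fold change -2.46). This call was lost with edgeR when any 1 mouse was left out and with edgeR on length-scaled counts, while the adjusted p was 5.51e-16 with DESeq2 and 6.79e-15 with DESeq2 on length-scaled counts (log2 fold change -2.48). With the latter 2 genes of the list were lower, *Sox4* and *Akap12* (adjusted p = 8.95e-06), and with DESeq2 on the counts *Rag2* was lower too (adjusted p = 0.0356). Among all genes 0.0451% were lower at an adjusted p under 0.05 with edgeR, 1.47% with DESeq2 and 1.45% with DESeq2 on length-scaled counts. At an unadjusted p under 0.05, 4 were lower, the others being *Akap12* (0.799 ± 0.557 against 12.6 ± 7.57 CPM; SD, n = 3 each; edgeR adjusted p = 0.222), the recombinase gene *Rag2* and *Dntt*, and 0 were higher, beside 5.12% lower and 3.0% higher among all genes. *Rag2* had 21, 43 and 10 reads in mice 19, 23 and 24 and 6, 5 and 3 reads in mice 5, 7 and 8, and *Dntt* had 1, 8 and 19 and 2, 0 and 0 reads. *Rag2* and *Dntt* were named after their values were seen. *Cd24a* (log2 fold change 0.25), *Erg* (0.11) and *Cd93* (-0.80), surface and factor genes that myeloid progenitors also express, did not pass. The surrogate light chain genes, which define pre-B cells, were near absent, with at most 19 reads of *Igll1* and 15 of *Vpreb1* in any mouse and 0 of *Vpreb2* in all 6 (these 3 were named after their values were seen).

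Of 17 transcription factors of the B lineage other than *Ebf1* and *Pax5*, 15 were tested. Their median log2 fold change was -0.37, and with edgeR and with DESeq2 on length-scaled counts 0 passed an adjusted p of 0.05. At an unadjusted p under 0.05, 2 were lower, *Bcl11a* (-2.41) and *Id2* (-0.69), an antagonist of E proteins, and 0 higher, beside 5.12% lower and 3.0% higher among all genes. *Bcl11a* had 11.7 CPM in mouse 19 and between 0.271 and 1.71 CPM in the other mice. *Pou2af1*, a coactivator of octamer factors, had 5.56, 6.64 and 6.20 CPM in mice 19, 23 and 24 and 7.15, 1.29 and 0.651 CPM in mice 5, 7 and 8, with mouse 5 high as for the members. *Irf4* had a log2 fold change of -0.88 (adjusted p = 0.684). *Spi1* (0.31) and *Ikzf1* (0.20), which myeloid cells need too, were the most abundant per length with *Id2*, at 330 and 59.4 TPM beside 120 TPM.

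Marker genes of other cell types were summed as TPM for comparison. The gates against CD3, Ter119 and B220 would remove T cells, erythroid cells and plasmacytoid dendritic cells, which carry B220 in mice, and these lists show what was still measured of them. Counts of genes without overlap in these lists stand beside 7.94% lower and 6.41% higher among all genes. Plasma cell genes (10 of 10 tested) summed to 151 to 226 TPM in Tet2+/+ and 89.8 to 164 TPM in TET2-deficient blasts, with *Xbp1* highest. *Xbp1*, which other secretory cells use too, had a log2 fold change of 0.55, while 3 of the 10 were lower without overlap, namely *Jchain*, *Derl3* and *Irf4*. *Fkbp11* of the same list was higher at an unadjusted p of 0.0326 with edgeR (log2 fold change 1.96, adjusted p = 0.599), mostly through mouse 5 with 15.8 CPM, and was named after its values were seen. *Jchain*, the joining chain of secreted IgM and IgA, had 98.5, 165 and 135 CPM in mice 19, 23 and 24 and 44.1, 27.6 and 26.6 CPM in mice 5, 7 and 8 (log2 fold change -2.02, adjusted p = 0.116 with edgeR, 2e-07 with DESeq2 and 4.31e-06 with DESeq2 on length-scaled counts, named after its values were seen). Plasmacytoid dendritic cell genes (11 of 12) summed to 93.8 to 123 and 91.4 to 109 TPM, with *Lair1* highest, a receptor of many leukocytes, and 2 were lower without overlap, *Siglech* (2.04 ± 0.398 against 0.379 ± 0.0592 CPM in Tet2+/+ and TET2-deficient blasts; SD, n = 3 each; adjusted p = 0.185 with edgeR and 0.000339 with DESeq2 on length-scaled counts) and *Pacsin1*, both named after their values were seen, as was *Derl3*. T cell genes (10 of 10, *Thy1* highest) summed to 26.9 to 34.4 and 11.7 to 37.7 TPM, and NK cell genes (9 of 9, *Klrk1* highest) to 25.1 to 45.0 and 11.4 to 25.3 TPM. Without overlap 2 of the 10 T cell genes and 3 of the 9 NK cell genes were lower and 0 of either list higher, and the log2 fold change was below 0 in 9 of 9 NK cell genes (median -0.84). *Ncr1*, an activating receptor of NK cells, had 4.49 ± 0.855 CPM in Tet2+/+ and 1.02 ± 0.482 CPM in TET2-deficient blasts (SD, n = 3 each; adjusted p = 0.321 with edgeR and 0.00512 with DESeq2 on length-scaled counts; named after its values were seen). Conventional dendritic cell genes (8 of 8, *Itgax* highest) summed to 22.7 to 57.7 and 15.7 to 25.1 TPM. Basophil and mast cell genes (6 of 8, *Cpa3* highest) did not overlap between the genotypes, with 257 to 305 TPM in Tet2+/+ and 60.1 to 141 TPM in TET2-deficient blasts, the same direction as *Fcer2a*, while *Fcer1a* and *Prss34*, which define these cells, had at most 3 reads in any mouse and were named after their values were seen. Erythroid genes (8 of 10, *Hbb-bs* highest) summed to 12.7 to 352 and 18.9 to 38.3 TPM, monocyte and macrophage genes (10 of 10, *Lyz2* highest) to 3520 to 6600 and 7290 to 8580 TPM, which did not overlap either, in the opposite direction, and genes of myeloid blasts and granulocytes (14 of 14, *S100a9* highest) to 22200 to 90500 and 43000 to 174000 TPM. The log2 fold change was below 0 in 8 of 8 erythroid genes tested (median -2.13). It was above 0 in 9 of 10 monocyte and macrophage genes (median 0.74) and in 12 of 14 genes of myeloid blasts and granulocytes (median 0.72). Among all genes 49.9% were below 0. The part of the cell types named here in the values of the members was not tested.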

How the data were processed

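RNA-seq of sorted AML blasts was analysed for 3 Cebpa-/p30 Tet2+/+ and 3 Cebpa-/p30 Tet2-/- mice, as labelled, each mouse a biological replicate. Unstranded TruSeq libraries had been run on a NextSeq 500. The authors ran Salmon (0.12.0 in their processing notes) through bcbio on Ensembl transcripts and deposited an estimated count per transcript, not normalized between mice. The deposited TPM values are abundances corrected for effective length that share 1 total. The deposited transcript lengths and effective lengths served for length scaling.

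Estimated counts of 136288 transcripts were summed to GENCODE M21 genes (GRCm38) in pandas 2.3.3 under Python 3.11.15 and then rounded. The 112 transcripts without a gene held between 0.0307% and 0.0416% of reads. Genes with library-size-normalized counts summing to at least 10 were tested with edgeR 4.0.16 (quasi-likelihood, TMM factors 0.867 to 1.11, no covariates) in R 4.3.3, with Benjamini-Hochberg adjustment over all genes and a threshold of 0.05. Standard errors were computed from the fold change and the square root of F. The biological coefficient of variation was 43.6%. The study's DESeq2 on length-scaled counts (1.42.0 here) was an alternative. The others were DESeq2 on the counts, edgeR on length-scaled counts, no filter, filterByExpr, RLE factors, library size only, robust estimation and each mouse left out. DESeq2 on transcripts of at least 500 bases, and TPM of these, were added after seeing the data. Tests were tried on simulated data first.

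The members and the other lists were chosen with earlier results of these data known. Named were all members, genes of the sort, *Tet2*, and in each other list the 3 genes highest in TPM and the 3 with the largest fold change among those that averaged 1 CPM or more. Some genes that this rule names are not reported here. For any other gene the text says that it was picked after its values were seen. Promoter windows came from RefSeq on GRCm38.p6, and figures from matplotlib 3.10.9. No batch is given in the sources used here.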

Additional observations from a re-analysis of the deposited data

How the results depend on the processing

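Members lower at an adjusted p under 0.05 numbered 0 with edgeR, 1 with DESeq2, 2 with DESeq2 on length-scaled counts and 1 with the latter on transcripts of at least 500 bases. At an unadjusted p they numbered 1, and 2 on length-scaled counts with edgeR or DESeq2, and between 1 and 5 with a mouse left out, 5 without mouse 5. The median log2 fold change of the members was -0.70, -0.86 with library size only, which moved the median of all genes to -0.17, and between -1.74 (without mouse 5) and -0.31 with a mouse left out. The sign of *Cd79b* turned to -0.06 with library size only, -0.0003 without mouse 19, -0.23 without mouse 24 and -0.31 without mouse 8, and lay between -0.31 and 0.62 with a mouse left out. That of *Blnk* turned to 0.01 without mouse 7, and lay between -0.96 and 0.01. The other 7 members kept the sign of their fold change in all alternatives, but on length-scaled counts with edgeR that of *Ebf1* went from -0.40 to -0.00096 and that of *Cd22* from -0.84 to -0.43. With a mouse left out, the fold change of *Pax5* ran from -2.24 to -0.18 and that of *Blk* from -2.41 to -0.2. That of *Ebf1* ran from -1.48 to -0.07 and that of *Cd79a* from -1.74 to -0.34. For *Ms4a1* it ran from -1.79 to -0.48 and for *Cd22* from -1.54 to -0.58. The call for *Pax5* on length-scaled counts was lost without transcripts under 500 bases, and for the other values the cause was not tested.

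In the other 5 lists together, 1 gene was lower at an adjusted p, *Sox4*, against 3 with DESeq2, 2 with DESeq2 on length-scaled counts, also from transcripts of at least 500 bases, and 0 with edgeR on length-scaled counts of all transcripts or with any mouse left out. Genes lower at an unadjusted p numbered 9, and between 5 and 13 with a mouse left out. Genes higher at an unadjusted p numbered 4, against 2 with edgeR on length-scaled counts, 1 with filterByExpr, 1 with library size only and between 0 and 5 with a mouse left out. The cause was not tested.

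With 3 mice per genotype no exact test can pass the threshold, and some members had few reads, as low as 3 for *Pax5* and 5 for *Ebf1* and *Blk* in mouse 8. No paired analysis was possible because the genotypes share no replicate numbers.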

Other observations

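The following genes were chosen after their values were seen. *Cd79b*, whose pattern over mice left that of the other members, was most like *Tmed5* (r of 0.996 over 6 mice), *Smarcb1* (0.995), *Lair1* (0.995), *Zc3h12c* (0.994) and *Emc8* (0.993), and 417 of 13831 genes passed an r of 0.9. *Lair1*, an inhibitory receptor of many leukocytes, had 91.0, 111 and 77.6 CPM in mice 19, 23 and 24 and 103, 76.9 and 110 CPM in mice 5, 7 and 8. *Fcer2a* was most like *Mfhas1* (0.993), the immunoglobulin heavy chain segment *Ighv1-75* (0.991), *Mgat4b* (0.988), the light chain segment *Igkv1-99* (0.987) and *4931440P22Rik* (0.985), and 140 genes passed an r of 0.9. *Ighv1-75* had 0.299, 7.55 and 2.32 CPM in mice 19, 23 and 24 and 0, 0 and 0.163 CPM in mice 5, 7 and 8. Like *Fcer2a*, it was highest in mouse 23 and low in mouse 19 among Tet2+/+ mice. With so many genes and 6 mice, high values of r are frequent, and they are given as descriptions.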
